A study of Rattus norvegicus with 36 samples.

Results

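Lung RNA of rats kept for 2 weeks in hypoxia under the anti-ZIP12 antibody APL-9796 was compared with lung RNA of rats kept in normoxia. Libraries were chosen by the arm named in the deposited information sheet: 12 libraries of hypoxia with APL-9796 and 12 of normoxia, 24 of 36 in all. Each arm held 6 male and 6 female libraries, and sex entered every fit as a blocking term. The series concerns zinc uptake through ZIP12 as a target in pulmonary hypertension. All animals of both arms were adult rats of 200 to 240 g on a Sprague Dawley background in which a human form of Slc39a12, the gene of ZIP12, stood in for the rat gene. The hypoxic animals breathed 10% oxygen at normal pressure and were given APL-9796 intraperitoneally at 10 mg/kg, first 48 h before hypoxia and again every 3 days. For the normoxic libraries no antibody is named, so hypoxia and the antibody cannot be told apart in this comparison. A further 12 libraries, from hypoxic animals given control IgG on the same schedule, were used only to set values side by side. The labels do not say that each library came from its own animal, so p-values measure the spread between libraries, part of which may be technical.

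ZIP12 is a membrane protein that carries zinc into the cell. In sustained hypoxia the small arteries of the lung constrict and then remodel: smooth muscle extends and thickens, matrix is laid down around the vessel, and the endothelium changes its output of relaxing and constricting factors. The contractile proteins of smooth muscle, the collagens and elastin of the vessel wall, and endothelial products such as endothelin and nitric oxide synthase are the usual readouts of that process.

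Hypoxia with APL-9796 was accompanied by higher levels of smooth muscle, collagen, elastic fibre and ion channel genes, and by lower levels of Lyve1, Npr3, Esm1, Edn1 and cytotoxic lymphocyte genes. Of 15365 genes tested, 1124 were higher and 754 lower than in normoxia at an adjusted p (FDR, the Benjamini-Hochberg value of edgeR's quasi-likelihood test) under 0.05. That is 12.2% of the genes tested, 7.32% higher and 4.91% lower, and the median log2 change over all genes was −0.01. A difference over 2-fold was reached by 167 higher and 48 lower genes, 1.4% of those tested. The levels of the arms did not overlap at all for 128 genes (0.833%), 103 higher and 25 lower with APL-9796. In the largest of 3 sequencing runs alone, with 10 APL-9796 and 9 normoxic libraries, 782 genes were higher and 487 lower, and with run as a term 1013 and 720. Without female normoxia 8 and 9, described next, 1137 were higher and 647 lower. Of the 1878 genes past the threshold, 671 have no current symbol and were tested by their identifier alone. Levels are in CPM, counts scaled to each library's total, and a number in brackets after a gene's name is its log2 change against normoxia, with its standard error where one is given.

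**Figure D1:**
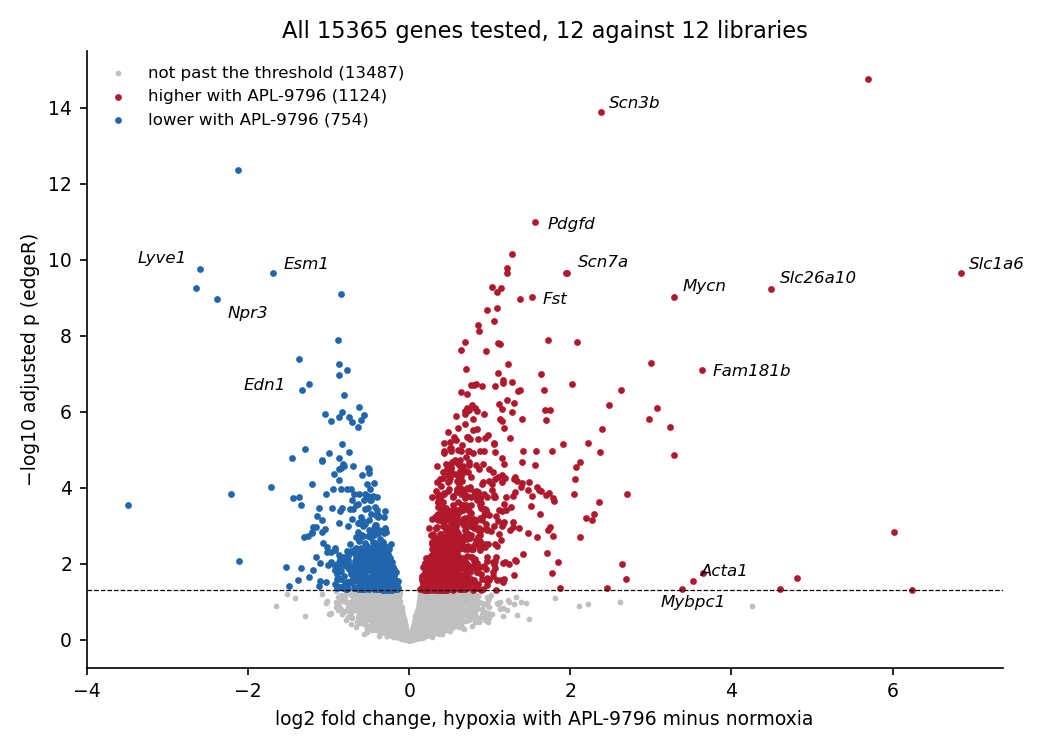
Each point is 1 of 15365 genes, with the log2 change in hypoxia with APL-9796 against normoxia on the horizontal axis and −log10 of the adjusted p on the vertical axis. Of these genes 1124 lie higher and 754 lower past the threshold of 0.05, and Scn3b, Lyve1 and Npr3 stand far from the bulk.

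Totals ran from 6.529 to 20.8 M counts in normoxia and from 6.068 to 15.52 M with APL-9796. Along the first principal component the APL-9796 libraries lay between 2.407 and 23.99 and the normoxic libraries between −43.06 and −1.421, with no overlap. The lowest values were those of female normoxia 9 (−43.06) and female normoxia 8 (−22.51), and the highest was that of male APL-9796 5. The 2 normoxic libraries had a high summed level of alveolar type II cell genes, 43566 and 31875 CPM, against 13163 to 22659 CPM in the other 22 libraries. Male APL-9796 5 stood apart in skeletal muscle genes, summed to 3391 CPM against at most 213 CPM elsewhere. Endothelial and epithelial lung markers were abundant in both arms: Pecam1 had a median of 486 CPM in normoxia and 620.0 with APL-9796, and Sftpc one of 9504 and 8028. Liver markers were near 0, with a highest median of 0.520 CPM for Alb. In bulk tissue, fewer cells of a type and less RNA per cell cannot be told apart. Slc39a12 itself (rCG_55714) was at 0 counts in each of the 24 libraries. A count of 0 leaves room for a level of 0.144 to 0.494 CPM, depending on the library (3 counts of its total, counting error only). No source used here says whether human reads could be counted under that entry, so the antibody's target was not measured.

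The largest rise among genes with a symbol belonged to Slc1a6 (rCG_29419), a glutamate transporter best known from Purkinje cells of the cerebellum. Over 12 normoxic libraries together it was counted 2 times in 142.6 M, and over 12 APL-9796 libraries 364 times in 128 M. The ratio of these pooled levels was 202.8, with an exact 95% counting interval of 55.73 to 1680.8. It ran from 0.605 to 5.24 CPM (median 2.58) in the APL-9796 libraries, and the highest normoxic library had 0.0945 CPM, so the arms did not touch. It passed the filter on low counts through the hypoxic libraries only, and its fitted change (log2 6.85) depends on the count added before the logarithm.

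Slc26a10 (rCG_59461), of the SLC26 family of anion transporters, ran from 0.0542 to 2.80 CPM (median 1.46) in normoxia and from 9.64 to 58.1 CPM (median 24.03) with APL-9796. Every APL-9796 library lay above every normoxic library (log2 4.49 ± 0.34, FDR = 5.9e-10). The growth-promoting transcription factor Mycn (rCG_62224) ran from 0.765 to 3.65 CPM (median 1.56) in normoxia and from 8.92 to 34.3 CPM (median 15.2) with APL-9796. Its arms were likewise apart (log2 3.29 ± 0.26, FDR = 9.3e-10). Scn3b (rCG_58317), a beta subunit of voltage-gated sodium channels, was the most abundant of the large rises, at 62.1 to 120.2 CPM (median 90.2) in normoxia and 355 to 523 CPM (median 439) with APL-9796. The lowest APL-9796 library stood far above the highest normoxic one (log2 2.37 ± 0.11, FDR = 1.3e-14).

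Of the other large rises, Fam181b (log2 3.64 ± 0.37), the sushi-domain protein Susd5 (2.63 ± 0.29), the calcium-binding protein Cabp1 (2.48 ± 0.28) and the olfactory receptor Olr59 (3.08 ± 0.36) had arms that did not overlap. Olr59 belongs to a large family of similar receptors, so its reads may be shared with others. Coch, a secreted matrix protein of the inner ear, rose by 3.24 and overlapped between the arms. These genes were scarce: none of the 5 reached a mean of 7 CPM with APL-9796.

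The size of the remaining 3 of the 12 largest rises rested on male APL-9796 5. Acta1, the actin of skeletal muscle, stood at 1274 CPM in that library and at most 30.2 CPM in the other 11. Mybpc1, a myosin-binding protein of slow skeletal muscle, stood at 226 CPM there and at most 2.17 CPM in the others. Without that library the log2 change of Acta1 was 0.99 (FDR = 0.135) against 3.52 with it, and that of Mybpc1 was −0.060 (FDR = 0.932) against 3.38. Ada, the enzyme adenosine deaminase, stood at 704 CPM there. It rose also without that library (log2 0.81 against 2.45, FDR = 1.1e-04), and all 12 APL-9796 libraries lay above the normoxic mean of their sex. Of 6 skeletal muscle markers tested 2, Acta1 and Mybpc1, passed, and 0 did so without that library. The creatine kinase Ckm stood at up to 620.0 CPM with APL-9796 and up to 14.2 CPM in normoxia.

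The largest fall among named genes was that of Lyve1 (rCG_40332), a hyaluronan receptor of lymphatic endothelium that some other endothelial cells and macrophages also carry. It ran from 297 to 546 CPM (median 433) in normoxia and from 33.99 to 92.4 CPM (median 84.1) with APL-9796. Every APL-9796 library lay below every normoxic one, in males and in females (log2 −2.59 ± 0.18, FDR = 1.8e-10). Npr3 (rCG_23642), the receptor that clears natriuretic peptides, ran from 54.6 to 175 CPM (median 112) in normoxia and from 13.3 to 39.7 CPM (median 18.7) with APL-9796. These ranges did not meet either (log2 −2.39 ± 0.19, FDR = 1.1e-09).

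The endothelial proteoglycan Esm1 (rCG_44604) fell from 101 ± 22.4 to 31.7 ± 9.32 CPM (log2 −1.69 ± 0.12, FDR = 2.2e-10), and Edn1 (rCG_44111), which encodes the constrictor peptide endothelin-1, fell from 158 ± 49.7 to 63.1 ± 11.2 CPM (log2 −1.34 ± 0.14, FDR = 2.6e-07; SD, n = 12). For both, the arms did not overlap. The nuclear receptor Nr5a2 (log2 −2.22 ± 0.37), the cannabinoid receptor Cnr1 (−1.45 ± 0.20), Sybu (−1.45 ± 0.25), the copper transporter Atp7b (−1.21 ± 0.19), Enpp6 (−1.21 ± 0.25), Apol2 (−1.21 ± 0.25), the collagen VI chain Col6a4 (−1.20 ± 0.24) and Stox1 (−1.16 ± 0.23) completed the 12 largest falls. Their arms overlapped, although all 12 APL-9796 libraries were below the normoxic mean of their sex for each of them except Enpp6, with 11.

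**Figure D2:**
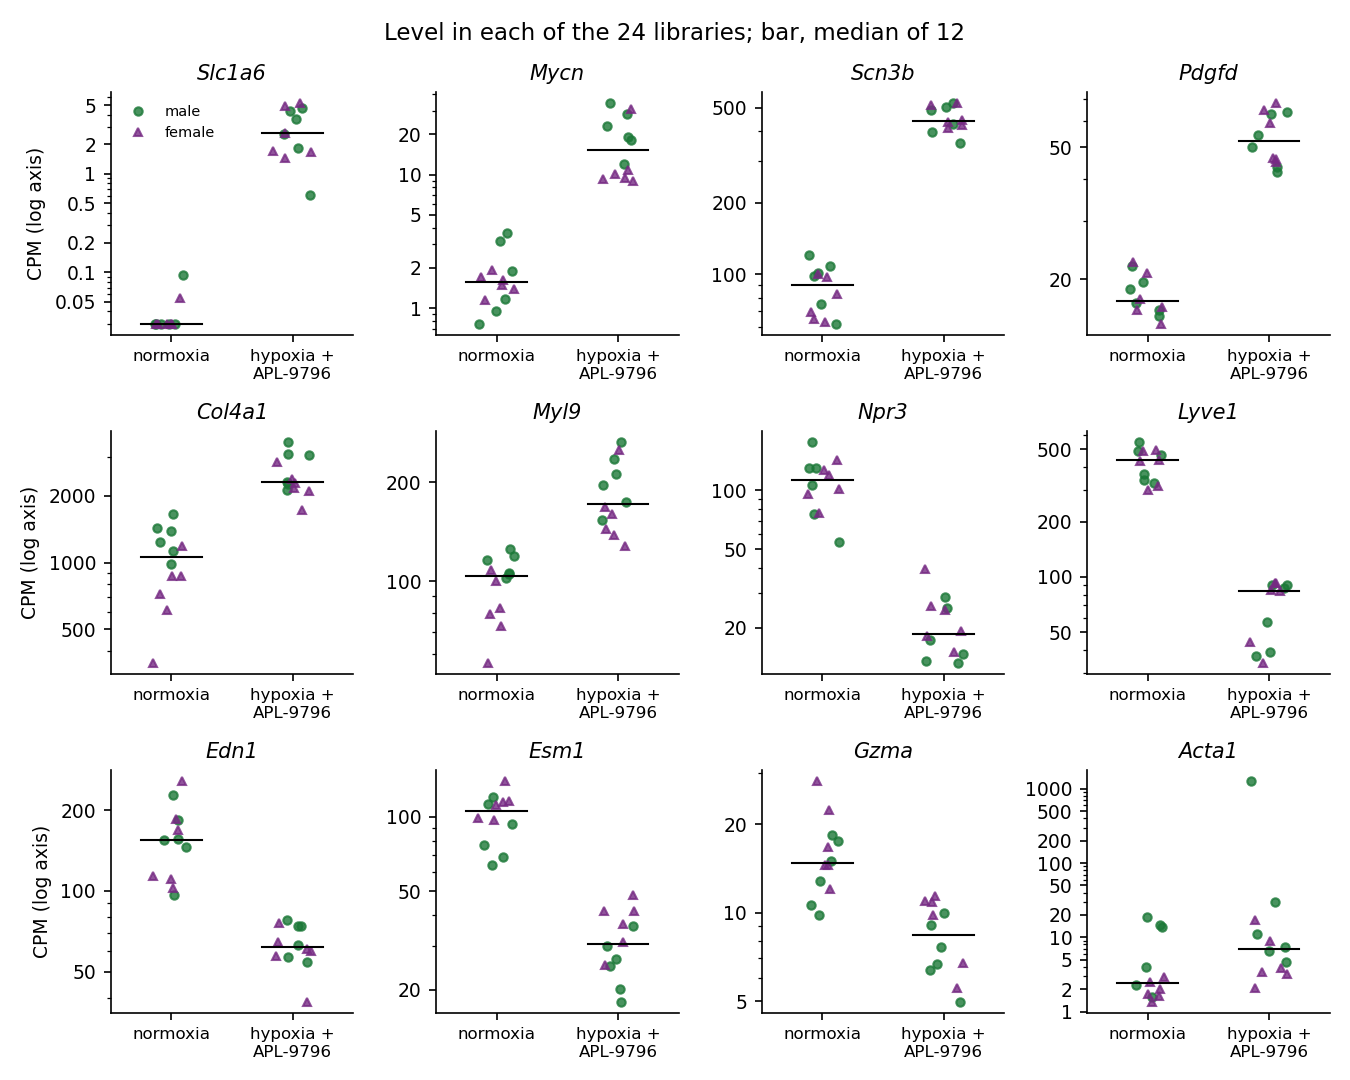
The level of single genes in CPM (log axis) is drawn for each library of normoxia and of hypoxia with APL-9796, with circles for males, triangles for females and a bar at the median of 12. Libraries with 0 counts of Slc1a6 are drawn at the foot of the axis. Lyve1 spans 297 to 546 CPM (median 433) in normoxia and 33.99 to 92.4 CPM (median 84.1) with APL-9796, with no library in between.

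The promoter windows of the named genes with the 2 largest rises and the 2 largest falls are shown because hypoxia-inducible factors bind DNA at a short motif, searched here as ACGTG or GCGTG on both strands. The windows are those of RefSeq on the rat assembly GRCr8, from 250 bases before the annotated start to 50 after it, read 5′ to 3′ on the strand of the gene, with matches in capitals. They lie at chr7:11520958-11521257 (Slc1a6), chr7:64889360-64889659 (Slc26a10), chr1:174410928-174411227 (Lyve1) and chr2:62658716-62659015 (Npr3), all on the minus strand.
Slc1a6: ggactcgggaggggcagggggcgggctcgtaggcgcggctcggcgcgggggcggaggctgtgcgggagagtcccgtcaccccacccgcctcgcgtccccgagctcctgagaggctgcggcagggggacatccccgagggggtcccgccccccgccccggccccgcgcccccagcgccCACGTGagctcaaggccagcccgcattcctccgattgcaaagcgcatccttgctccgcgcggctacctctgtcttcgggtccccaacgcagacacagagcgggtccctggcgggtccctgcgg
Slc26a10: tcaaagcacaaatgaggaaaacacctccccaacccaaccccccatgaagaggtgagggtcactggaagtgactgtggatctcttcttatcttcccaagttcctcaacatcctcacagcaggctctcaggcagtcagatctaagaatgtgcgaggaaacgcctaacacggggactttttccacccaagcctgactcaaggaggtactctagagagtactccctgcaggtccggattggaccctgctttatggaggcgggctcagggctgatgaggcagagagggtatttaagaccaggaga
Lyve1: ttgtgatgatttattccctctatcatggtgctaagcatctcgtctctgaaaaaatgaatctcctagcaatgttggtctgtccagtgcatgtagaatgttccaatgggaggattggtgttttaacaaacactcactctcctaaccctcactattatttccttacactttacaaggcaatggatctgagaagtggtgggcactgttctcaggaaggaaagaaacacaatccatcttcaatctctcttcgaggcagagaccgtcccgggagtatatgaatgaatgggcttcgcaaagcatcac
Npr3: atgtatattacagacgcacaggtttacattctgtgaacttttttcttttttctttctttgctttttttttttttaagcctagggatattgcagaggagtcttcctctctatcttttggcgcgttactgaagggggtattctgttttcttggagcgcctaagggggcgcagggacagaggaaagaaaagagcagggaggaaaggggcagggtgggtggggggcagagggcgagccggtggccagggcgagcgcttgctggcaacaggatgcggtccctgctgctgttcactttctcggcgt
Slc1a6 held 2 overlapping matches, 1 on each strand of the same palindrome. The other windows held 0, which says only that these letters are not in them. The motif was present in 60.9% of the 7249 tested genes with a window, in 56.7% of 564 higher genes, in 56.4% of 367 lower genes and in 51.4% of 70 genes more than 2-fold higher. A window held it in 42.9% of all 27457 promoters of the table.

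Genes of the smooth muscle contractile apparatus rose together. Of 9 tested, 8 rose and 0 fell, with a median log2 change of 0.77 against −0.01 over all genes, of which 7.32% were called higher. Over all genes 4.91% were called lower, and both shares stand beside the counts of each list below. Kcnmb1 (rCG_34005), the beta subunit that tunes the large-conductance potassium channel of smooth muscle, ran from 3.42 to 6.33 CPM (median 5.19) in normoxia and from 6.41 to 13.7 CPM (median 10.2) with APL-9796. The arms did not overlap (log2 0.98 ± 0.13, FDR = 4.0e-06). Myl9 (rCG_37420), the regulatory light chain of smooth muscle myosin, increased from 97.8 ± 20.6 to 185 ± 45.8 CPM, again without overlap (log2 0.92 ± 0.11, FDR = 1.1e-06). The calponin Cnn1 (log2 1.05 ± 0.18), the intermediate filament protein Des (0.98 ± 0.15), the actin Actg2 (0.77 ± 0.13), the actin-nucleating leiomodin Lmod1 (0.77 ± 0.14) and Myocd (0.77 ± 0.16), the coactivator that switches on smooth muscle genes, rose as well. Tpm1, a tropomyosin, rose by 0.33, and the kinase gene Mylk stood at 0.24 (FDR = 0.119). The list's summed level ran from 814 to 1611 CPM in normoxia and from 1417 to 2121 CPM with APL-9796. Acta2, Tagln and Myh11 have no row under their symbols here and were not analysed.

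Mural and stromal markers of the pericyte and fibroblast list moved in both directions, 4 higher and 1 lower of 11. Notch3, the receptor of mural cells, rose from 143 to 264 CPM (log2 0.92 ± 0.17, FDR = 3.9e-04). Gli1, the transcription factor of Hedgehog-responsive stroma, rose by 0.96, the pericyte gene Higd1b by 0.44 and the potassium channel Kcnj8 by 0.45. Rgs5, a regulator of G protein signalling typical of pericytes, fell by 0.44 on the log2 scale (FDR = 0.00749). The summed level of the list ran from 773 to 1173 CPM in normoxia and from 902 to 1356 CPM with APL-9796.

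Collagen genes rose more often than they fell. Of 21 collagen chains tested, 10 rose and 1, Col6a4, fell (median log2 0.43). Col4a1 (rCG_43378), the main chain of basement membranes, ran from 354 to 1648 CPM (median 1056) in normoxia and from 1723 to 3488 CPM (median 2295) with APL-9796. The lowest APL-9796 library just exceeded the highest normoxic one (log2 1.30 ± 0.15, FDR = 5.9e-07). Its partner Col4a2 rose from 713 ± 273 to 1578 ± 287 CPM and Col15a1, a collagen of vascular basement membranes, from 138 ± 42.1 to 318 ± 22.3 CPM, both without overlap (FDR = 2.4e-05 and 5.4e-08). Col15a1 was even in hypoxia, from 290 to 356 CPM over 12 libraries. Among the fibrillar chains Col1a1 (log2 0.97 ± 0.24), Col1a2 (0.73 ± 0.19), Col3a1 (0.50 ± 0.16) and Col5a2 (0.32 ± 0.11) rose by less relative to their spread. The summed level of the collagens was 2731 CPM in female normoxia 9 and 4264 in female normoxia 8, against 6318 to 11752 in the other normoxic libraries and 9803 to 15557 with APL-9796. Without these 2 libraries the counts were 10 higher and 1 lower.

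Elastic fibre and crosslinking genes showed 9 of 20 higher and 0 lower (median 0.31). Elastin, Eln (rCG_21256), ran from 157 to 1119 CPM (median 654) in normoxia and from 467 to 2449.5 CPM (median 1594) with APL-9796, which overlapped (log2 1.32 ± 0.22, FDR = 1.3e-04). One APL-9796 library, female 12, stood at 467 CPM, within the normoxic range. Ltbp2, a latent TGF-beta binding protein of elastic fibres, rose by 0.95, the microfibril protein Fbn1 by 0.77, the crosslinking oxidases Loxl3 by 0.74 and Loxl2 by 0.60, and the collagen lysyl hydroxylase Plod1 by 0.40. Matricellular proteins and proteoglycans had 9 of 17 higher and 0 lower (median 0.42). Sparc, a collagen-binding glycoprotein, rose from 2729 to 4034 CPM (log2 0.57 ± 0.08). Comp (1.29), the proteoglycans Vcan (0.94) and Bgn (0.50), fibronectin Fn1 (0.71), Ccn3 (0.41) and Postn (0.39) rose too.

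**Figure D3:**
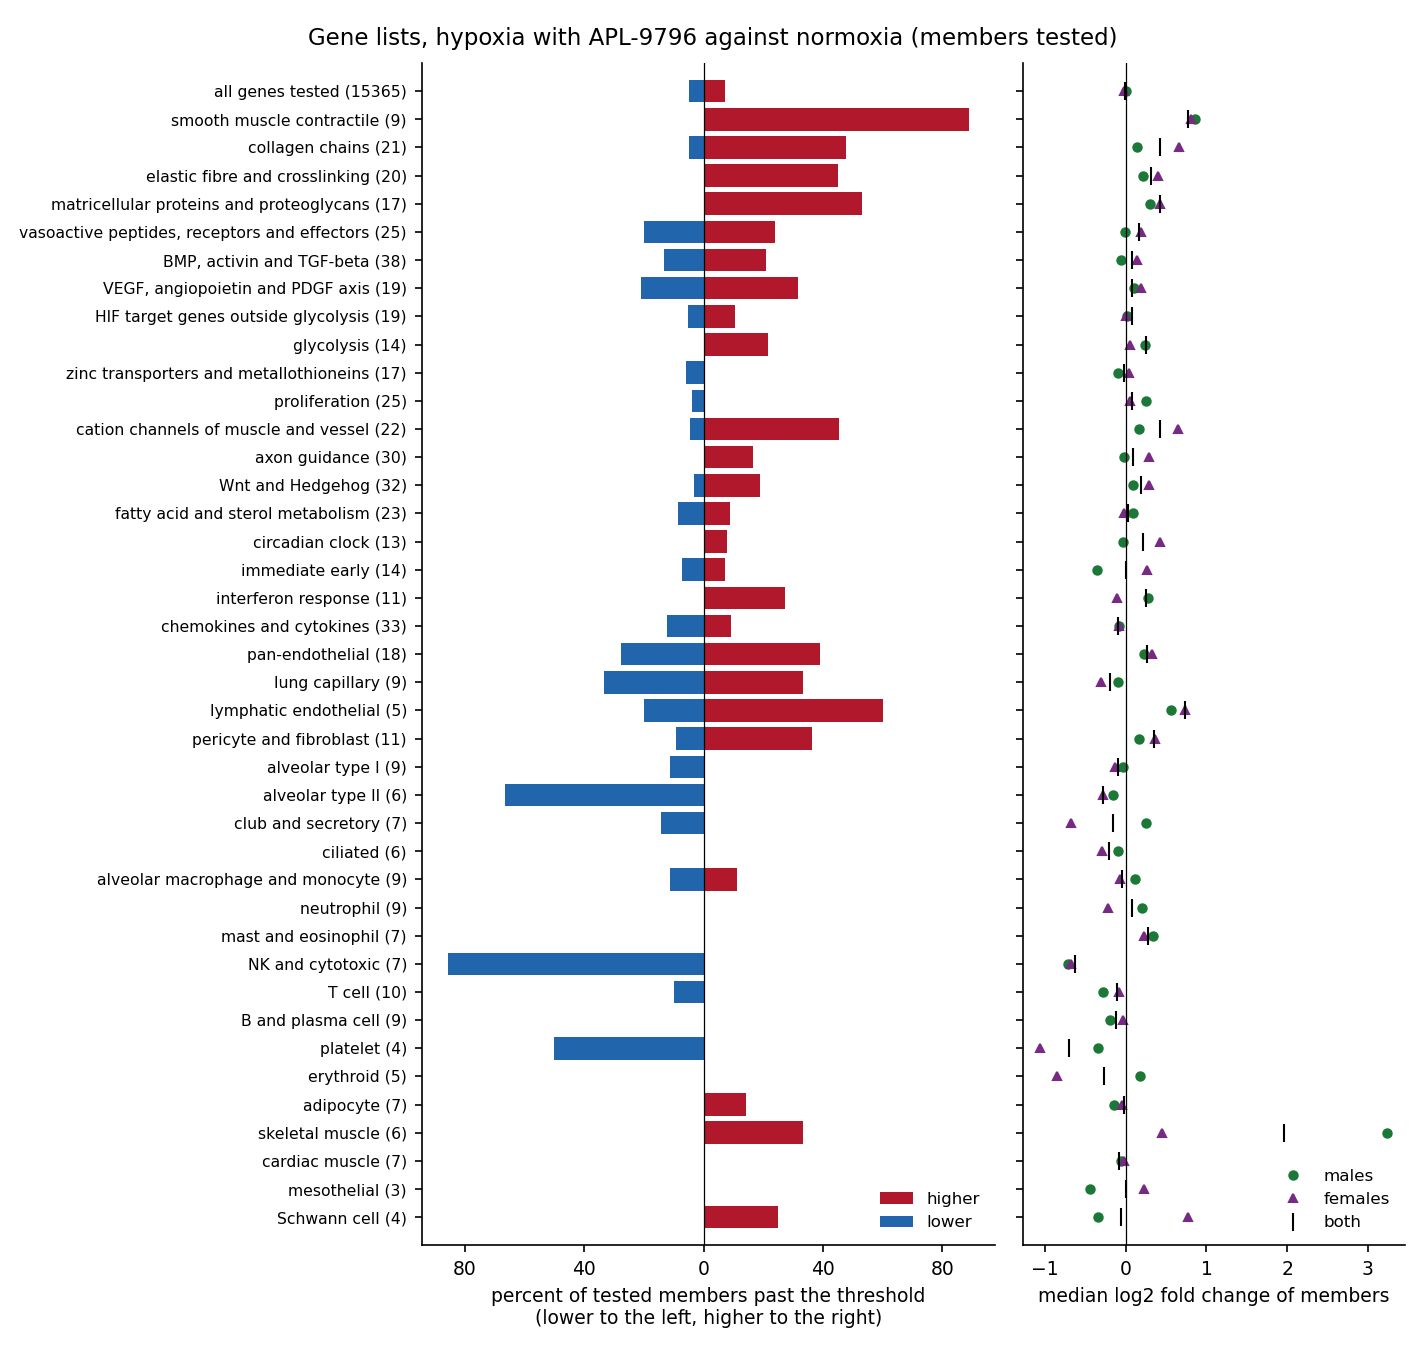
For each gene list (number of members tested in brackets), bars give the percent of tested members past the threshold, lower to the left and higher to the right, in hypoxia with APL-9796 against normoxia. The right panel gives the median log2 change of the members in males (circles), in females (triangles) and in both (ticks). Smooth muscle (8 of 9 higher) and NK and cytotoxic genes (6 of 7 lower) have the longest bars.

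Cation channels of muscle and vessel had 10 of 22 higher and 1 lower, with a median of 0.43. Besides Scn3b, Scn7a (rCG_27408), a sodium channel of glia, nerve and stroma, ran from 109 to 331 CPM (median 244) in normoxia and from 696 to 1161 CPM (median 882) with APL-9796. No library fell between the arms (log2 1.96 ± 0.14, FDR = 2.2e-10). Scn7a is also in the Schwann cell list, where it was the 1 of 4 markers called, and the other 3 did not pass. Trpc6, a receptor-operated calcium channel of pulmonary artery muscle, rose from 15.2 to 27.4 CPM (log2 0.84 ± 0.10, FDR = 9.6e-07). The voltage-gated calcium channels Cacna1h (0.89) and Cacna1c (0.54) rose, as did the potassium channels Kcnk3 (0.72) and Kcnj8. Kcnk3, TASK-1, is in people a gene of heritable pulmonary arterial hypertension. Kcnq1 fell by 0.25.

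Vasoactive genes divided, with 6 of 25 higher and 5 lower (median 0.16). On the side of relaxation, Nos3 (rCG_24341), the endothelial nitric oxide synthase, rose from 33.03 ± 10.7 to 65.4 ± 18.1 CPM (log2 0.99 ± 0.15, FDR = 3.1e-05). The guanylate cyclase subunit Gucy1b1 (0.36), which senses nitric oxide, and the prostacyclin receptor Ptgir (0.48) also rose. The peptide Apln (rCG_53135) ran from 130.5 to 217 CPM (median 172) in normoxia and from 79.8 to 125 CPM (median 97.9) with APL-9796. Its arms did not overlap (log2 −0.75 ± 0.09, FDR = 1.3e-06), whereas the apelin receptor Aplnr rose by 0.64 (FDR = 0.0222). Among genes of constriction, peptide processing and serotonin uptake, Edn1 fell as above, the converting enzyme Ace fell from 1899 ± 232 to 1352 ± 161 CPM (log2 −0.50 ± 0.08, FDR = 4.1e-05) and the serotonin transporter Slc6a4 fell from 40.6 to 22.2 CPM (log2 −0.87 ± 0.12). Angiotensinogen, Agt, rose by 0.40. The endothelin receptors Ednra (0.35, FDR = 0.0596) and Ednrb (−0.05, FDR = 0.597) did not pass the threshold. Without female normoxia 8 and 9, 4 vasoactive genes were higher and 6 lower.

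Endothelial markers did not move as 1 group. Of 18 pan-endothelial genes 7 rose and 5 fell, and the list's summed level overlapped broadly, from 6173 to 8072 CPM in normoxia and from 6561 to 8911 CPM with APL-9796. Emcn, a sialomucin of the endothelial surface, rose from 139 ± 36.95 to 312 ± 60.8 CPM (log2 1.16 ± 0.12, FDR = 1.4e-07), and the guidance receptor Robo4 rose from 26.4 to 57.2 CPM (log2 1.13 ± 0.10). The adhesion proteins Pecam1 (0.41) and Cdh5 (0.34) and the orphan receptor Tie1 (0.55) rose by less. In the other direction Clec14a (rCG_62107), a C-type lectin of vessels, ran from 625 to 868 CPM (median 718) in normoxia and from 312 to 511 CPM (median 385) with APL-9796, with no overlap (log2 −0.89 ± 0.08, FDR = 1.3e-08). Tek (rCG_53516), the angiopoietin receptor, ran from 555 to 939 CPM (median 638) in normoxia and from 383 to 496 CPM (median 455) with APL-9796. Its highest APL-9796 library was below its lowest normoxic one (log2 −0.56 ± 0.07, FDR = 1.2e-06). Flt1 (−0.34), Eng (−0.27) and Ptprb (−0.44) also fell.

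Lung capillary markers were 3 higher and 3 lower of 9, or 5 lower without male APL-9796 4. The diaphragm protein Plvap fell from 1046 to 544 CPM (log2 −0.94 ± 0.14, FDR = 4.2e-05), and Hpgd, the enzyme that breaks down prostaglandins, fell from 69.4 to 38.1 CPM without overlap (log2 −0.87 ± 0.13). Tbx2 (0.60) and Cd93 (0.30) rose. Among 5 lymphatic endothelial markers the direction was also mixed. Prox1, the transcription factor that specifies lymphatic endothelium, rose from 1.08 ± 0.403 to 2.73 ± 0.808 CPM (log2 1.31 ± 0.20, FDR = 5.1e-05). The chemokine Ccl21 (0.73) and Reln (0.79) rose too, Pdpn stood at −0.10 (FDR = 0.565), and Lyve1 fell.

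Ligands of the PDGF beta receptor stood higher in every APL-9796 library than in any normoxic one. In the VEGF, angiopoietin and PDGF list 6 of 19 rose and 4 fell (median 0.08). Pdgfd (rCG_31616), a ligand of the PDGF beta receptor, ran from 14.7 to 22.6 CPM (median 17.2) in normoxia and from 42.01 to 67.97 CPM (median 52.4) with APL-9796, and the arms did not overlap (log2 1.56 ± 0.10, FDR = 1.0e-11). Pdgfb, another ligand of that receptor, rose from 113 ± 26.7 to 259 ± 35.7 CPM, also without overlap (log2 1.21 ± 0.08, FDR = 1.6e-10). Vegfc (0.35), Angpt2 (0.39) and the co-receptor Nrp1 (0.46) rose. Vegfa stood at 1151 ± 226 CPM in normoxia and 1217 ± 168 CPM with APL-9796 (log2 0.08 ± 0.10, FDR = 0.659).

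Of 38 genes of BMP, activin and TGF-beta signalling 8 rose and 5 fell (median 0.07). Fst (rCG_44843), the antagonist that binds activins, ran from 4.01 to 13.9 CPM (median 9.61) in normoxia and from 19.3 to 45.8 CPM (median 24.03) with APL-9796, without overlap (log2 1.53 ± 0.12, FDR = 9.7e-10). The ligand Bmp2 rose from 10.4 ± 3.42 to 24.8 ± 9.64 CPM (log2 1.30 ± 0.20, FDR = 5.7e-05), and the BMP antagonist Grem1 rose from 0.344 to 1.27 CPM (log2 1.85 ± 0.47). The receptor Tgfbr2 rose from 605 to 821 CPM (FDR = 6.8e-06), and the ligands Tgfb3 (0.59) and Tgfb1 (0.33) rose. The inhibitory Smad6 (−0.71), itself a target of BMP signalling, the co-receptors Eng (−0.27) and Tgfbr3 (−0.33) and the ligand Bmp6 (−0.28) fell. The lower count was 2 without male APL-9796 1, and 3 without male normoxia 6 or without female APL-9796 7 or 8. Bmpr2, the receptor most often mutated in people with heritable pulmonary arterial hypertension, stood at 381 ± 62.1 CPM in normoxia and 372 ± 60.2 CPM with APL-9796 (log2 −0.04 ± 0.10, FDR = 0.808).

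Guidance and morphogen genes that changed mostly rose. Of 30 axon guidance genes 5 rose and 0 fell, and of 32 Wnt and Hedgehog genes 6 rose and 1 fell, with medians of 0.09 and 0.19. The secreted semaphorin Sema3c (rCG_24388) ran from 425 to 643 CPM (median 530.0) in normoxia and from 908 to 1349 CPM (median 1098) with APL-9796 (log2 1.03 ± 0.08, FDR = 5.1e-10). The ephrin receptor Epha4 rose from 45.4 to 106 CPM (log2 1.21 ± 0.14) and the noncanonical ligand Wnt5b from 16.4 to 36.6 CPM (log2 1.16 ± 0.14). The arms of these 3 genes did not overlap. Unc5b (0.76), Wnt5a (0.60) and the Wnt effector Lef1 (0.65) rose, and the ligand Ihh fell by 0.84. Without male APL-9796 4 there were 10 higher Wnt and Hedgehog genes, and without female normoxia 8 and 9 there were 3 lower genes in each of these lists. Outside the lists, the phospholipase Plcb1 (from 55.9 to 136 CPM), the protocadherin Pcdh17 (from 49.2 to 108 CPM), the planar polarity gene Prickle1 (from 53.4 to 114 CPM) and the Mediator kinase Cdk19 (from 109 to 234 CPM) rose without overlap. Ivns1abp fell from 323 to 181 CPM (log2 −0.84 ± 0.07).

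Most genes known as targets of hypoxia-inducible factors did not pass the threshold after 2 weeks. Of 19 outside glycolysis 2 rose and 1 fell (median 0.08), and of 14 glycolysis genes 3 rose and 0 fell (0.25), near the background of 7.32% higher for the former. Pdk1, the kinase that holds pyruvate out of the mitochondrion, rose from 24.3 ± 4.04 to 31.1 ± 2.93 CPM (log2 0.35 ± 0.08), and the glucose transporter Slc2a3 rose by 0.37. The lipase inhibitor Angptl4 fell from 9.75 ± 1.90 to 6.43 ± 2.06 CPM (log2 −0.60 ± 0.14, FDR = 0.0041). Acute hypoxia is known to raise Angptl4 in many cells. In the largest run alone its adjusted p was 0.0515, and that of Slc2a3 0.0805. The aldolase Aldoc (rCG_35551) ran from 3.06 to 6.05 CPM (median 4.44) in normoxia and from 6.60 to 12.7 CPM (median 8.39) with APL-9796, without overlap (log2 0.94 ± 0.12, FDR = 4.9e-06). Pfkl (0.57) and Pfkfb4 (0.44) rose. The glycolysis count was 5 without female normoxia 8 and 9.

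In the list of zinc transporters and metallothioneins 0 of 17 genes tested were higher and 1 lower (median −0.02). The metallothioneins Mt1, Mt1m, Mt2A and Mt3 were not among those tested, nor were several transporters such as Slc39a7, Slc39a8 and Slc39a13. Slc30a5 (rCG_44645), which loads zinc into the secretory pathway, ran from 77.1 to 139 CPM (median 86.7) in normoxia and from 66.1 to 82.97 CPM (median 79.2) with APL-9796, which overlapped (log2 −0.22 ± 0.07, FDR = 0.026). In the largest run alone its adjusted p was 0.0972, and without male APL-9796 4 the list had 4 lower. Of 25 proliferation genes 0 rose and 1, the ribonucleotide reductase Rrm1, fell by 0.21 (FDR = 0.0346). That call was lost in 13 of 35 alternatives, among them the one without female normoxia 8 and 9 (log2 −0.15, FDR = 0.0653). In both lists the share called lower was near the 4.91% called lower over all genes. Mki67, Mcm3, Mcm4, Rrm2, Kif11 and Tk1 were not tested.

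Cytotoxic lymphocyte genes were lower. Of 7 NK and cytotoxic markers 6 fell and 0 rose (median −0.63), against 4.91% lower over all genes. Ccl5 (rCG_35282), a chemokine of cytotoxic cells, ran from 28.5 to 71.1 CPM (median 46.6) in normoxia and from 16.5 to 37.1 CPM with APL-9796, with means of 46.8 ± 11.5 and 26.1 ± 6.91 CPM (SD, n = 12). The ranges overlapped, and all 12 APL-9796 libraries lay below the normoxic mean of their sex (log2 −0.85 ± 0.14, FDR = 1.0e-04). The granzymes Gzma (from 16.1 to 8.36 CPM, log2 −0.94 ± 0.15) and Gzmk (from 23.3 to 13.8 CPM, −0.76 ± 0.15), Nkg7 (−0.63 ± 0.13), perforin Prf1 (−0.58 ± 0.15) and the receptor Ncr1 (−0.57 ± 0.17) fell, and Klrd1 stood at −0.42 (FDR = 0.0782). The list's summed level ran from 103 to 243 CPM in normoxia and from 74.1 to 137 CPM with APL-9796. Of 10 T cell markers 1, Cd8a, fell by 0.46 (FDR = 0.035, and up to 0.0684 over the alternatives). Of 9 B and plasma cell, 9 neutrophil and 7 mast cell and eosinophil markers 0 changed. Il33, an alarmin stored in endothelial and epithelial nuclei, fell from 424 ± 55.6 to 273 ± 38.5 CPM without overlap (log2 −0.64 ± 0.08, FDR = 2.6e-06), and the chemokine Cxcl12 rose from 147 to 252 CPM (log2 0.77 ± 0.09). Of 11 interferon response genes 3, Irf7 (0.59), Usp18 (0.67) and Cxcl10 (0.62), rose, the last of them close to the threshold (FDR = 0.0469, and up to 0.11 over the alternatives). The list's summed level was 1634 CPM in male APL-9796 4, which had the highest level of all 3, and at most 1108 CPM in the other APL-9796 libraries. Without it Irf7 (0.50, FDR = 0.0129) and Usp18 (0.59, FDR = 0.00296) passed and Cxcl10 (0.52, FDR = 0.0657) did not.

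Alveolar type II markers were lower, 4 of 6 with 0 higher (median −0.28), and their levels moved with 2 normoxic libraries. Sftpc (rCG_37027), the surfactant protein C precursor, ran from 8448 to 26760.3 CPM (median 9504) in normoxia and from 6624 to 11657 CPM (median 8028) with APL-9796. The 2 highest values, 26760.3 and 18339 CPM, belonged to female normoxia 9 and 8. Without them the change was −0.26 (FDR = 0.0433) against −0.50 with them, and the count of lower markers was 4. Sftpa1 (−0.39), Etv5 (−0.31) and Napsa (−0.25) were the others. With sequencing run as a term, in the largest run alone, or without any 1 of female normoxia 8 and female APL-9796 7, 8 and 11, 2 were lower. The Sftpc call was lost in 10 of 35 alternatives (FDR up to 0.0818) and the Sftpa1 call in 7 (up to 0.102). Both were lost with the replicate block. Of 4 platelet markers 2, Pf4 (−0.66) and Clec1b (−0.86), fell, and 0 did so without female normoxia 8 and 9.

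The counts of the remaining lists stand beside 7.32% of all genes called higher and 4.91% called lower. Of 9 alveolar type I markers 1, Hopx (−0.46), fell. The Hopx call was lost in 11 of 35 alternatives, among them the replicate block and the one without female normoxia 8 and 9 (log2 −0.28, FDR = 0.12). Of 7 club and secretory markers 1, Clca1, fell (−0.90), a call lost in 5 of 35 alternatives: run as a term, the largest run alone, all 36 libraries, the replicate block and without male normoxia 3 (FDR up to 0.256). Of 6 ciliated, 7 cardiac muscle, 5 erythroid and 3 mesothelial markers 0 changed. The macrophage and monocyte list of 9 had Siglec1 higher (0.37) and Cd14 lower (−0.44). The Siglec1 call was lost in 16 of 35 alternatives, among them the one without female normoxia 8 and 9 (FDR up to 0.106). In the adipocyte list of 7 the lipase Lipe was higher (0.79). Of 33 chemokines and cytokines 3 rose and 4 fell: beside Ccl21, Cxcl12, Ccl5 and Il33 these were Osm (0.61), the eosinophil attractant Ccl11 (−0.65) and Ccl20 (−0.90). The Osm call was lost in 16 of 35 alternatives, among them run as a term, the largest run alone and the one without female normoxia 8 and 9 (FDR up to 0.159).

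Of 23 genes of fatty acid and sterol metabolism 2 rose and 2 fell. The fatty acid binding protein Fabp5 (0.53) was among the rises, and the lipoprotein lipase Lpl (−0.31) and the dehydrogenase Acadm (−0.31) fell. Of 13 circadian clock genes 1, the repressor Cry2, rose from 37.8 ± 6.59 to 55.9 ± 12.00 CPM (log2 0.56 ± 0.11, FDR = 6.6e-04). Its lowest APL-9796 library, at 46.45 CPM, just exceeded its highest normoxic one, at 46.36 CPM. The list's summed level was 1925 CPM in female APL-9796 12 and 1309.7 CPM in female APL-9796 7, which also had the highest Cry2. Its change was 0.48 without the former (FDR = 3.9e-04) and 0.53 without the latter (FDR = 0.00139). Of 14 immediate early genes Nr4a2 (0.45) rose and the phosphatase Dusp1 (−0.67) fell. The summed immediate early level was 6634 CPM in male normoxia 2 and 5815 CPM in male APL-9796 6. Both calls stood without either library, and both were lost in the largest run alone (FDR = 0.13 and 0.0521).

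The change was then fitted in each sex. In males 488 genes passed the threshold (3.18%), 354 higher (2.3%) and 134 lower (0.872%). In females 2543 passed (16.6%), 1255 higher (8.17%) and 1288 lower (8.38%). No gene passed the test of the difference between the sexes, by edgeR (lowest FDR = 0.335, 2026 genes at an unadjusted p under 0.05). DESeq2 and limma-voom each called 1 gene. Of the 1878 genes past the threshold over both sexes, 3 had opposite signs in males and females. Without female normoxia 8 and 9 the counts were 813 in males and 764 in females. Leaving out 1 library moved the female count to 1332 (female normoxia 8), 1513 (female normoxia 9), 1568 (female APL-9796 11) or 3969 (female normoxia 7). The lead genes had similar changes in both, such as Lyve1 at −2.66 in males and −2.52 in females, Scn3b at 2.24 and 2.50, and Pdgfd at 1.54 and 1.59. Col1a1 stood at 0.35 in males and 1.60 in females, and Fbn1 at 0.35 and 1.20, and neither difference passed the test between the sexes. The median of the 21 collagens was 0.13 in males and 0.66 in females. The part in these values of female normoxia 8 and 9, whose summed collagen levels were the lowest of the 24 libraries, was not tested.

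**Figure D4:**
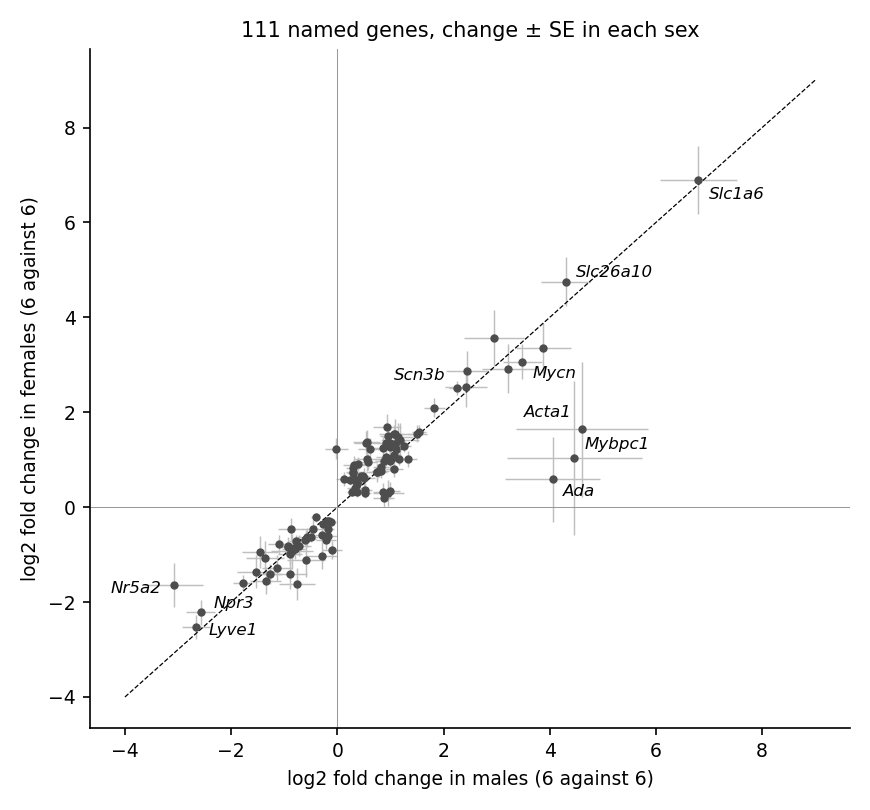
The log2 change in hypoxia with APL-9796 against normoxia is plotted for the 111 named genes past the threshold, in males on the horizontal and in females on the vertical axis, with SE bars and a dashed line of equal change. Lyve1 lies at −2.66 in males and −2.52 in females, and Acta1, Mybpc1 and Ada lie well below the line.

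The hypoxic arm with control IgG gives the same genes another set of values. Both hypoxic arms were set against the same 12 normoxic libraries, so their changes share those controls and likeness between them is no separate support. Against normoxia, hypoxia with IgG had 857 higher (5.58%) and 764 lower genes (4.97%), 10.5% called in all. Among the 24 largest rises and falls, Lyve1 stood at −2.59 ± 0.18 with APL-9796 and −2.60 ± 0.17 with IgG, Npr3 at −2.39 ± 0.19 and −2.61 ± 0.23, Mycn at 3.29 ± 0.26 and 3.08 ± 0.24, and Edn1 at −1.34 ± 0.14 and −1.27 ± 0.15. Acta1 and Mybpc1 were the 2 of these 24 that did not pass the threshold with IgG. The list counts with IgG were 8 higher and 0 lower for smooth muscle, 8 and 1 for collagens and 9 and 0 for elastic fibre genes. They were 8 and 0 for matricellular genes, 9 and 1 for cation channels and 0 and 5 for NK and cytotoxic genes. Vasoactive genes had 4 higher and 8 lower with IgG, and alveolar type II markers 0 and 2.

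Tested directly against hypoxia with IgG, with no normoxic library involved, 0 genes passed in hypoxia with APL-9796 by edgeR (lowest FDR = 0.697). An unadjusted p under 0.05 was found for 1034 genes, and chance alone would give 768. DESeq2 called 0 and limma-voom 1. The unadjusted 95% interval of that difference reached a median of 0.184 on the log2 scale to either side of the estimate. Passing after adjustment over all genes takes a larger difference than that for the typical gene. The 0 calls therefore leave room for differences above 0.184 as well. For Lyve1 the 95% interval of the difference ran from −0.47 to 0.46. For Scn3b the difference was 0.01 (95% interval −0.12 to 0.14), for Col15a1 −0.06 (95% interval −0.18 to 0.05) and for Eln 0.33 (95% interval −0.10 to 0.77). Among 111 genes named under the rule and past the threshold, 7 had an unadjusted interval that left out 0: Mybpc1, Ada, Prox1, Nr4a2, Napsa, Ccl5 and Clca1. The 111 were chosen by values of the same APL-9796 libraries, so a chance expectation of 5.55 does not hold for them. Mybpc1 and Ada stood at 226 and 704 CPM in male APL-9796 5, far above its arm. The next largest after Mybpc1 was Clca1, a secreted protein of airway goblet cells, at 10.6 ± 4.94 CPM in normoxia, 5.73 ± 3.14 with APL-9796 and 28.3 ± 35.2 with IgG (SD, n = 12 each). Prox1 differed by 0.40 (95% interval 0.05 to 0.75) and Ccl5 by −0.29 (95% interval −0.54 to −0.05), and none of the 7 passed after adjustment over all genes.

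**Figure D5:**
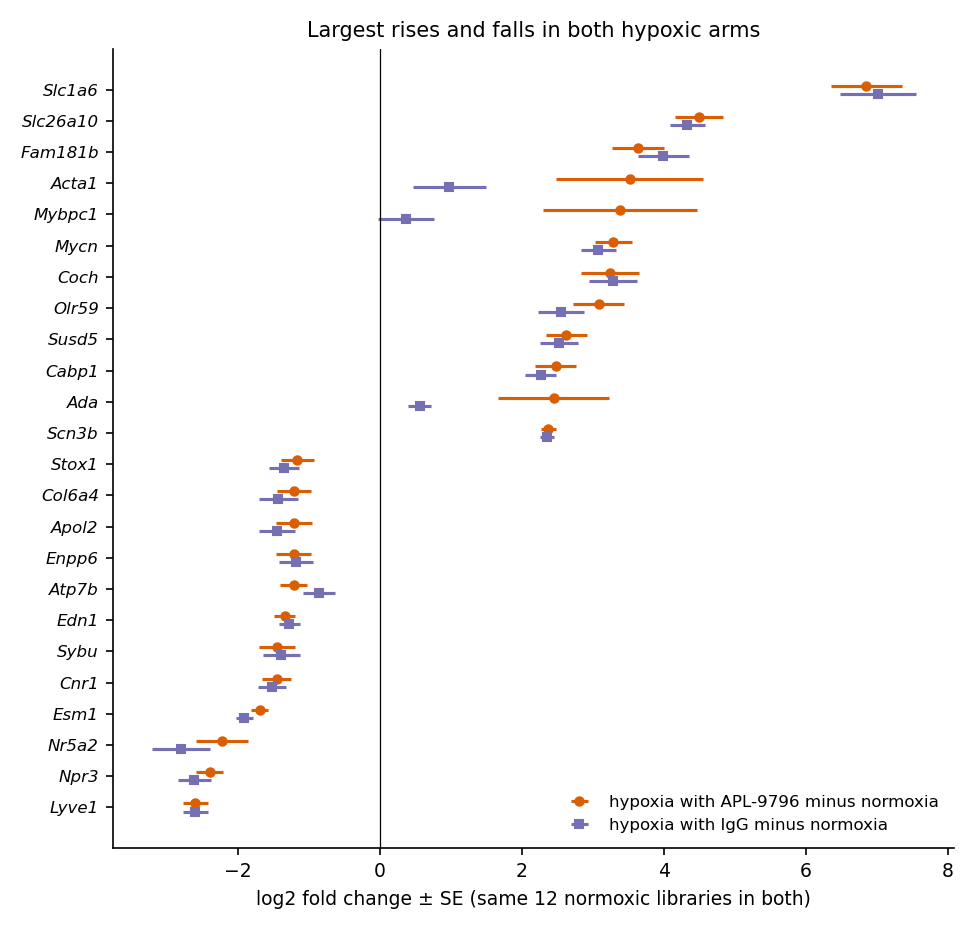
For the 24 largest rises and falls, the log2 change ± SE against the same 12 normoxic libraries is plotted for hypoxia with APL-9796 (circles) and hypoxia with IgG (squares). Lyve1 lies at −2.59 and −2.60, and Acta1 at 3.52 and 0.98.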

How the data were processed

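The deposited table holds whole-number read counts per gene, not normalized. The submitters' processing notes list DESeq2 1.24.0. No source used here names the aligner, the counter, its strand setting or the genome build, so genes that overlap, also on opposite strands, may share reads. Of 27308 genes, 11099 (66.961% of counts) received a current symbol through RefSeq's GRCr8 gene table, 7444 directly and 3655 through older symbols, and 1 line of totals (0.0% of counts) was left out. Arm and sex matched between labels and information sheet in 36 of 36 libraries. File names in that sheet place the libraries in 3 runs: 5 of 6 APL-9796 libraries of each sex, all 6 normoxic males and 3 normoxic females were in the largest.

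The robust quasi-likelihood test of edgeR 4.0.16 (R 4.3.3) was fitted to the 24 libraries with sex as a term, after filterByExpr and with TMM scaling. Levels are CPM over TMM-scaled totals, mean ± SD. Log2 changes are given ± SE with Benjamini-Hochberg adjusted p. The hypoxic IgG libraries were tested on the same genes. Within groups, Spearman correlations ran from 0.9345 to 0.9949 and no pair of libraries differed by as little as sampling noise (lowest chi-square per gene 3.864). On simulated counts for the 15365 genes of APL-9796 against normoxia, 35, 44, 49 and 50 of 50 genes changed 1.5-, 2-, 3- and 4-fold were recovered. Of 188 calls 10 were false. These counts were drawn from the kind of model that was fitted and held no outlying libraries, so recovery in the real libraries may differ.

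The members and lists (41: 19 pathway, 22 cell marker) were chosen with earlier results of these data known. Named genes were the 12 largest rises, 12 largest falls and 10 further smallest p-values among genes past 0.05 that had a symbol, averaged 1 CPM or more and changed one way in males and females, up to 4 members per list by p-value, 5 for the difference between sexes, and Slc39a12. Further list members and other genes were named after their values were seen. Alternatives were RLE scaling, no filter, a 1 CPM filter in 12 libraries, DESeq2 1.42.0, limma-voom (limma 3.58.1), all 36 libraries, sequencing run as a term or the largest run alone, a replicate block, and libraries left out. Python 3.11.15, pandas 2.3.3, scipy 1.17.1 and matplotlib 3.10.9 were used.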

Additional observations from a re-analysis of the deposited data

Results flagged for a closer look

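Genes were picked out for the smallest p-values of the difference between the sexes, so the directions below follow partly from that choice. For 4 of them all 6 male APL-9796 libraries lay on one side of the male normoxic mean and all 6 female APL-9796 libraries on the other side of the female normoxic mean. The difference itself was tested and did not pass (edgeR, FDR = 0.335 for each). The channel regulator Unc79 stood at −0.38 in males and 0.71 in females, a difference of 1.09 on the log2 scale. Pom121, of the nuclear pore, stood at −0.16 and 0.46, a difference of 0.62, and Spring1, a regulator of SREBP processing, at −0.29 and 0.48, a difference of 0.78. Runx3, a transcription factor of cytotoxic lymphocytes, stood at −0.78 and 0.45, a difference of 1.23. Without female normoxia 8 and 9 the differences were 0.88, 0.49, 0.70 and 1.07 in the same order, and none passed. Pom121 passed with DESeq2 (adjusted p = 0.0369), with limma-voom (0.00736) and without female normoxia 7 (0.0426), within a range of 0.00736 to 0.602 over its alternatives.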

How the results depend on the processing

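Of 111 named genes past the threshold, 91 passed in each alternative that tested them, of 35 in all (3 of the 91, Slc1a6, Coch and Nr5a2, were filtered out where 1 CPM in 12 libraries was required), and 1 changed sign: Mybpc1, which ran from −0.060 (without male APL-9796 5) to 3.59 as single libraries were left out. The named genes were chosen largely for large changes or small p-values in the main fit, which favours their passing again. Of all 1878 genes called, between 1127 (largest run alone) and 1868 (RLE scaling) were also called in an alternative. Without female normoxia 8 and 9 that number was 1501. Higher genes ran from 782 (largest run alone) to 1552 (limma-voom). Lower genes numbered 1391 with all 36 libraries in 1 model, 1112 with limma-voom and 487 in the largest run alone, which kept fewer libraries. Genes called in males were 1167 with limma-voom and 813 without female normoxia 8 and 9. Genes called in females were 1420 with sequencing run as a term, 535 in the largest run alone and 764 without female normoxia 8 and 9. The largest run alone gave 567 for IgG against normoxia. DESeq2 and limma-voom each called 1 gene for the difference between sexes, and limma-voom 1 for APL-9796 against IgG. The cause of these shifts was not tested. Leaving out each library in turn gave 936 to 1343 higher and 528 to 1060 lower genes, 369 to 725 in males, 1332 to 3969 in females and 0 to 1 for the difference between sexes. The extremes in females came without female normoxia 8 (1332) and 7 (3969). Same-numbered libraries of APL-9796 and normoxia did not deviate together over the genes tested (correlations −0.22 to 0.06, 0 of 12 pairs over 0.1). The IgG libraries were not part of that check, and whether the numbers mark animals handled together was not tested. With the numbers as a replicate block 916 genes were higher and 515 lower, 1383 of these also called without the block. IgG against normoxia had 1400 calls with the block and APL-9796 against IgG 0. The block was not fitted for the difference between sexes. The term for sequencing run takes up female normoxia 8, alone in its run. Totals of 6.068 M and more limit precision chiefly for genes under 1 CPM.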

Other observations

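Several genes outside the lists, chosen after their values were seen, also separated the arms without overlap. Nes, the intermediate filament nestin of proliferating vascular and neural cells, rose from 72.2 ± 31.4 to 224 ± 47.97 CPM (log2 1.69 ± 0.19, FDR = 9.1e-07). The Notch ligand Jag2 rose from 42.04 to 107 CPM (log2 1.35 ± 0.15), the integrin chains Itga2 from 8.42 to 28.02 CPM (1.72 ± 0.16) and Itga6 from 133 to 258 CPM (0.96 ± 0.08), the desmosomal Pkp1 from 4.54 to 16.5 CPM (1.72 ± 0.35) and the nucleotide receptor P2ry2 from 36.5 to 79.4 CPM (1.11 ± 0.10). The endothelial sialomucins Cd34 (0.71) and Podxl (0.69) and thrombomodulin, Thbd (0.50), were higher. Ddah1, which breaks down the nitric oxide synthase inhibitor ADMA, fell from 92.4 to 54.5 CPM (log2 −0.77 ± 0.08), the nucleoside transporter Slc29a1 fell from 261 to 147 CPM (−0.83 ± 0.10), and Selenop, the plasma selenium carrier, fell from 3920.2 to 2658 CPM (−0.56 ± 0.10). The smallest adjusted p of all belonged to a gene without a symbol, rCG_24111, which ran from 2.73 to 11.4 CPM (median 5.43) in normoxia and from 171 to 606 CPM (median 243) with APL-9796 (log2 5.69 ± 0.22, FDR = 1.7e-15). Among falls, rCG_41101 went from 53.1 ± 24.99 to 8.32 ± 2.42 CPM and rCG_25331 from 38.8 ± 9.01 to 8.89 ± 1.87 CPM, both without overlap.

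The APL-9796 libraries were not even in several lead genes. Lyve1 stood at 38.8, 36.9, 56.4, 44.00 and 33.99 CPM in males 1, 2 and 3 and females 7 and 8, and between 83.4 and 92.4 CPM in the other 7. Slc1a6 stood between 3.61 and 5.24 CPM in those 5 libraries and between 0.605 and 2.63 in the other 7, and Coch between 4.05 and 7.73 CPM against 0.454 to 2.11. Slc26a10 stood between 28.02 and 58.1 CPM in the 5 and between 9.64 and 35.2 CPM in the 7, with overlap. Of the 5 libraries 4 came from the largest sequencing run, as did 6 of the other 7. In the IgG arm, Lyve1 stood at 38.96, 42.4, 53.8 and 44.0 CPM in males 1, 2 and 3 and female 7. It stood between 60.9 and 129 CPM in the other IgG libraries, female 8 among them. Over the same split, IgG levels of Slc1a6 overlapped, at 3.16 to 6.58 against 0.707 to 4.03 CPM. So did those of Coch, at 3.00 to 8.07 against 1.61 to 3.44 CPM. All these sets were seen in the data, the labels name no such groups, and they were not tested.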
